A study of Mus musculus with 3 samples.

Results

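The genes described here are the 8 mouse genes for the chains of the cartilage collagens II, IX, X, XI and XXVII, namely Col2a1, Col9a1, Col9a2, Col9a3, Col10a1, Col11a1, Col11a2 and Col27a1. They were taken by symbol and make up 8 of the 30406 genes counted in every library. All cells came from intervertebral discs of untreated shh-cre:R26R-tdTomato mice at postnatal day 30, in which Cre made under Shh control switches on tdTomato, and every sample carries both alleles. Lumbar, thoracic and caudal discs were digested with collagenase, tdTomato-positive cells were enriched by sorting, and 3 single-cell libraries were made, each from pooled litter-matched mice and sequenced as a replicate batch. There is 1 group and no treatment, so the comparisons are between cell classes within the libraries. Each class was gated by marker genes outside the 8 collagens. The classes are nucleus pulposus cells, chondrocytes, Prg4-positive cells (Prg4 encodes lubricin), osteoblasts and stromal cells.

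Collagen II, a homotrimer of the Col2a1 chain, forms the thin fibrils of hyaline cartilage and of the gel-like nucleus pulposus. Collagen XI, built from Col11a1 and Col11a2 chains together with a product of Col2a1, nucleates those fibrils and limits their width, and collagen IX, a heterotrimer of Col9a1, Col9a2 and Col9a3 chains, sits on their surface and links them to other matrix. Collagen X, the Col10a1 homotrimer, makes a hexagonal network around hypertrophic chondrocytes, and collagen XXVII is a fibrillar collagen of cartilage. Sox9 with Sox5 and Sox6 drives many of these genes in chondrocytes.

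In the GENCODE vM21 annotation of the mm10 genome, Col2a1 lies on the minus strand of chr15:97975602-98004695, and Col10a1 on the plus strand of chr10:34389981-34397085, inside Nt5dc1, which runs on the opposite strand. Col9a1 is at chr1:24177610-24252684, Col9a2 at chr4:121039385-121055322 and Col9a3 at chr2:180597790-180622189, where it overlaps the end of Tcfl5 on the opposite strand. Col11a1 is at chr3:114030540-114220718, Col11a2 at chr17:34039437-34066685 and Col27a1 at chr4:63214004-63334991, the last with Mir455 inside it on the same strand. Promoters of 6 of the 8 genes were present in the RefSeq table of build GRCm38.p6. The 250 bases upstream of the RefSeq start are printed for 5 of them because they set side by side the genes that moved together: Col9a1 and Col9a2, which followed Col2a1 across classes, Col11a1 and Col11a2, which were also high in osteoblasts, and Col10a1, which marked a few chondrocytes. All are on the plus strand, at chr1:24177360-24177609, chr4:121039316-121039565, chr3:114030290-114030539, chr17:34038888-34039137 and chr10:34389731-34389980 in the order printed. Capitals mark the Sox-type hexamer ACAAAG, its variant TCAAAG, the further variant ACAATG and the box TATAAA, each on either strand and with no overlaps between them.
Col9a1: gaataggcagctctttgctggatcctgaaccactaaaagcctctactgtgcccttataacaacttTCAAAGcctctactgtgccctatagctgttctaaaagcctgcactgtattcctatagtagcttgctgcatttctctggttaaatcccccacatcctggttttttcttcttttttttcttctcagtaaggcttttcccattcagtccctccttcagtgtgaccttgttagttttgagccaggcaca
Col9a2: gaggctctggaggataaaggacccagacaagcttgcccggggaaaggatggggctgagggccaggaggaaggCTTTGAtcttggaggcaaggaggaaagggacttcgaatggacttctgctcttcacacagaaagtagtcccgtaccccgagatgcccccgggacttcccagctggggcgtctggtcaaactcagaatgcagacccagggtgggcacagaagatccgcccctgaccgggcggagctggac
Col11a1: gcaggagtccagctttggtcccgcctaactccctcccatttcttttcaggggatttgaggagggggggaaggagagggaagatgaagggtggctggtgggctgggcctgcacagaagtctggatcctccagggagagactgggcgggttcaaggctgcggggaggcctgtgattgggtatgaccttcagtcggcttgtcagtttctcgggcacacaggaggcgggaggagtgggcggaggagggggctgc
Col11a2: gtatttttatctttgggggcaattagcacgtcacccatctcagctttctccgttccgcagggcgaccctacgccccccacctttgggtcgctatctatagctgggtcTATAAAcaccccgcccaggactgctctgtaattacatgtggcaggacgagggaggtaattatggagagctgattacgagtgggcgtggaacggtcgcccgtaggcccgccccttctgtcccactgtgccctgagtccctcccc
Col10a1: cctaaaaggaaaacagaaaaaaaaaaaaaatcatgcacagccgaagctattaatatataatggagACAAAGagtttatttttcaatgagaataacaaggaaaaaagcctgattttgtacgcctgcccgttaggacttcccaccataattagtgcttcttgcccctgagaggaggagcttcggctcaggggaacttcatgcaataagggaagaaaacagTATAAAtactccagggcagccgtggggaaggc
The 2 printed collagen IX promoters each held 1 TCAAAG, in Col9a2 on the minus strand, Col10a1 held 1 ACAAAG and 1 TATAAA, Col11a2 held 1 TATAAA, and Col11a1 held none of the 4 words. Among all 32851 promoters of the table, the same window held ACAAAG in 16.5%, its variant TCAAAG in 13.8%, the variant ACAATG in 10.7% and the box TATAAA in 12.4%, so such matches are common and describe the letters only. The second Col9a1 start, at chr1:24194953-24195202 upstream, and the Col27a1 window at chr4:63215162-63215411 held none of them. RefSeq and GENCODE starts can differ, and the Col9a2 window lies mostly inside the GENCODE span given above. The second Col9a1 window and the Col27a1 window lie wholly inside theirs.

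The libraries held 64695292, 145925353 and 137188648 UMIs (unique molecular identifiers, counts of captured transcripts), and 5732, 10786 and 10364 barcodes passed the cell filter. The nucleus pulposus gate took 117, 122 and 9 cells of libraries 1, 2 and 3, the chondrocyte gate 800, 234 and 45, the Prg4-positive gate 200, 121 and 12, the osteoblast gate 36, 220 and 664, and the stromal gate 49, 40 and 49. Markers left out of the gates separated nucleus pulposus cells from chondrocytes: Foxa2, Cd24a, Car3 and Cav1 summed to 10634, 18558 and 21124 CPM (UMIs per 1000000 summed UMIs) in nucleus pulposus cells and to 413, 429 and 412 CPM in chondrocytes. Library 1 stood apart. Of its 117 nucleus pulposus cells, 29 also carried transcripts of the cartilage genes Comp, Matn3, Cilp, Cilp2 or Prg4 or of bone genes, against 2 of 122 and 1 of 9 in libraries 2 and 3. These 29 cells held 13937 of the 15218 Col2a1 UMIs of that class in library 1, and their median depth was 15462 UMIs, against 7652 UMIs in the 88 cells kept. Whether they are 2 cells in 1 droplet was not tested, and levels, chain shares and fold changes of nucleus pulposus cells are therefore given with them and without them. Markers of chondrocytes (Matn1, Comp, Clec3a, Ucma and Chad) summed to 434, 246 and 49.3 CPM in the nucleus pulposus cells without cartilage or bone markers, and to 11073, 12943 and 12451 CPM in chondrocytes. In Prg4-positive cells the same panel summed to 14971, 17362 and 24176 CPM, so it did not separate them from chondrocytes. The Prg4-positive panel (Cilp, Cilp2, Tnmd, Scx and Mkx) summed to 8756, 4814 and 5325 CPM there, against 2168, 1559 and 2463 CPM in chondrocytes. In stromal cells their own panel (Igfbp5, Pdgfrb, Cxcl14 and Grem1) summed to 1233, 1655 and 5217 CPM and endothelial markers to 1825, 454 and 126 CPM, so that endothelial markers exceeded it in library 1. The libraries shared 24, 29 and 224 barcodes pairwise, of which 4 of the 248 nucleus pulposus cells and 11 of the 1079 chondrocytes carried one. Removing shared barcodes left the number of collagen genes called the same in all 6 comparisons. B lineage cells without any cartilage or bone gate gene served as background for free RNA. Median depths were 9300, 10545 and 4714 UMIs in nucleus pulposus cells, and 2534, 3480 and 2488 UMIs in these B lineage cells. That background also differed by library, at 91.0, 21.0 and 2.46 CPM of Col2a1. It may be too low, since cells with cartilage or bone gate transcripts were left out of it. All B lineage cells held 1117, 322 and 87.8 CPM of Col2a1, and 36.2% of those of library 1 had a UMI of it. Whether these UMIs are free RNA or 2 cells in 1 droplet was not tested.

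**Figure D1:**
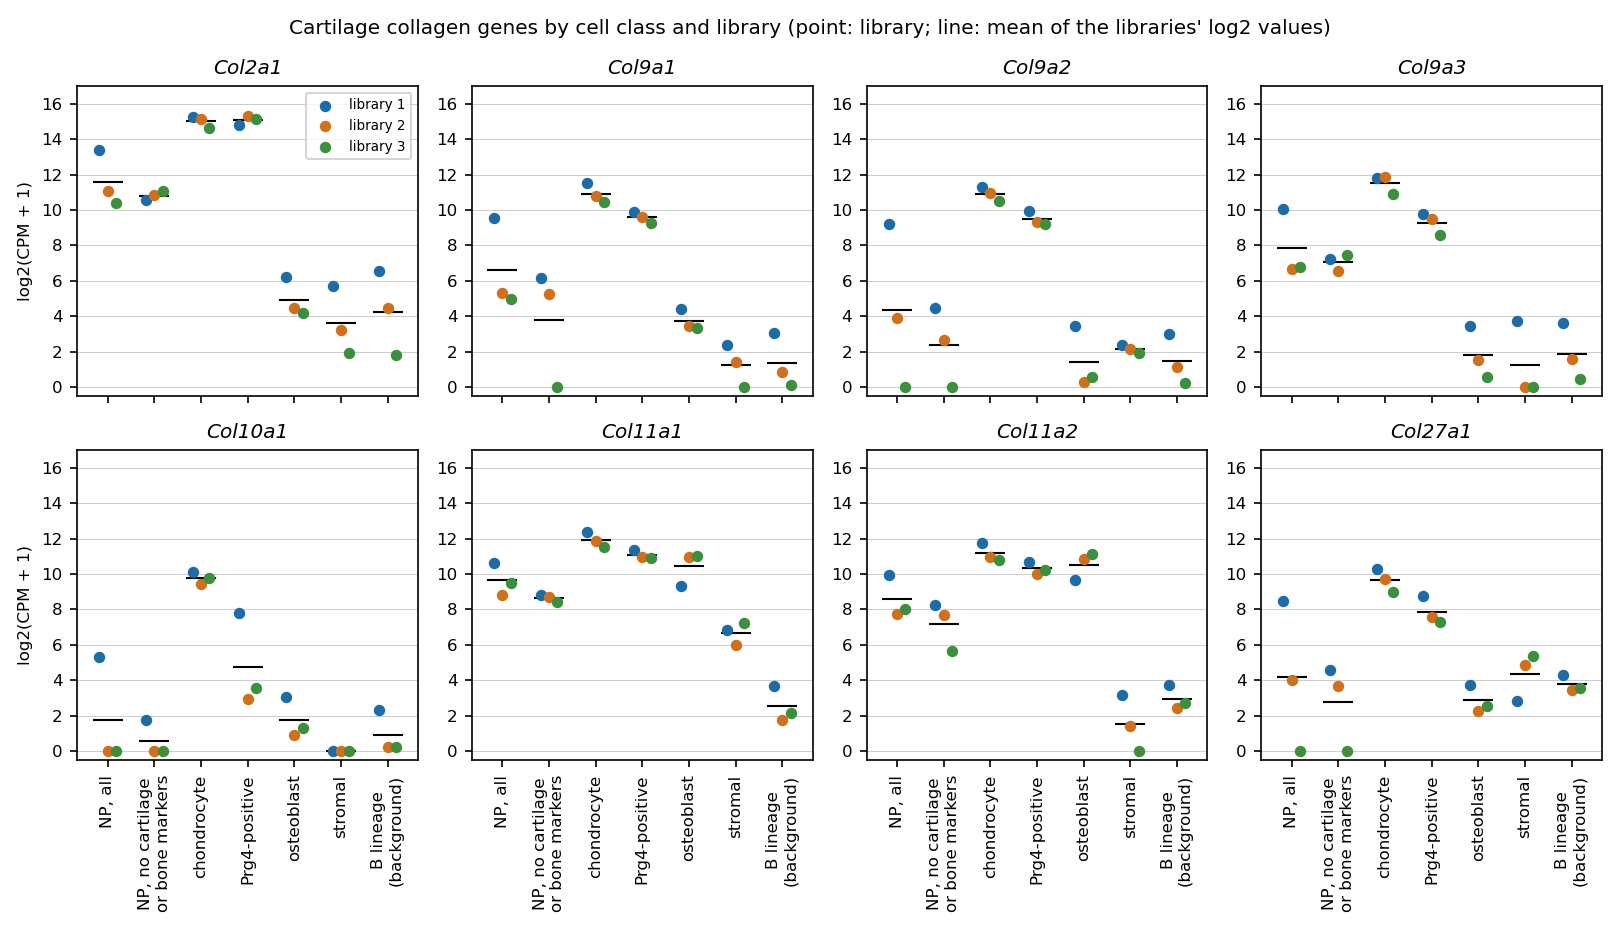
Level of each collagen gene as log2(CPM + 1) in the UMIs summed per class, with 1 point per library and a line at the mean of their log2 values (NP, nucleus pulposus). Col2a1 reaches 25466 to 39090 CPM in chondrocytes, Col11a1 and Col11a2 stay high in osteoblasts, and the library 1 point of all nucleus pulposus cells drops once cells with cartilage or bone markers are left out.

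Col2a1, the collagen II gene, was high in cartilage cells, intermediate in nucleus pulposus cells and near background in bone and stroma. All nucleus pulposus cells gave 10610, 2129 and 1329 CPM in libraries 1, 2 and 3. Without the cells that carried cartilage or bone markers the 3 libraries gave 1489, 1809 and 2119 CPM, a mean of 1806 ± 315 CPM (SD, n = 3). Chondrocytes gave 39090, 36438 and 25466 CPM, Prg4-positive cells 28314, 40896 and 35773 CPM, osteoblasts 72.2, 20.7 and 16.8 CPM, and stromal cells 51.0, 8.38 and 2.85 CPM. Every chondrocyte and Prg4-positive library lay above every nucleus pulposus library, and the osteoblast and stromal values were no higher than the B lineage background in libraries 1 and 2. In order of level, chondrocytes and Prg4-positive cells came together, then nucleus pulposus cells, then the others. In edgeR's quasi-likelihood test, with p adjusted by Benjamini and Hochberg's method over all genes, Col2a1 was lower in all nucleus pulposus cells than in chondrocytes by a log2 fold change of -2.98 ± 0.72 (SE, adjusted p = 0.0207), and of -4.57 ± 0.67 (adjusted p = 0.000331) in the cells without cartilage or bone markers. It was higher than in osteoblasts by 7.13 ± 0.75 on the log2 scale with all cells and by 5.50 ± 0.62 without the marked cells (edgeR adjusted p = 2.61e-05 and 2.12e-05). Osteoblasts were gated to hold under 3 of the 6 chondrocyte gate genes, so this difference can be in part built in.

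Aggrecan (Acan), the large proteoglycan that shares the matrix with collagen II, ran the other way. It was at 5149, 7359 and 3338 CPM in all nucleus pulposus cells and at 6043, 7345 and 5322 CPM in those without cartilage or bone markers, against 4007, 2706 and 2902 CPM in chondrocytes, where it was also a gate gene, so the difference was not tested.

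Across the 8 genes, nucleus pulposus cells were lower than chondrocytes in every fold change, and 5 genes passed the test with all gated cells (Col2a1, Col9a1, Col9a2, Col9a3 and Col10a1), where 3.67% of the 11707 genes tested were called lower. Without cells carrying cartilage or bone markers, all 8 were called lower, against 8.63% of 11184 genes tested. Those cells were set aside for cartilage transcripts after the data were seen, so a larger deficit in cartilage genes is in part built into that fit. The median log2 fold change of the 8 genes was -3.03 and -5.32 in these fits, and that of all genes tested was -0.03 in both. The nucleus pulposus sums in the test come from libraries 1 and 2, because library 3 had 9 cells and the minimum was 10. Without library 1 all 8 genes were called with the full gate, without library 2 none, and without library 3 1 gene, Col10a1, and with no library block or with only these 2 classes in the fit none was called. With library 1 or 2 left out the nucleus pulposus class has 1 sum, which is assumed to vary like the other classes. The chondrocyte gate itself asks for cartilage matrix genes, so it favours cells with an active cartilage program.

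**Figure D2:**
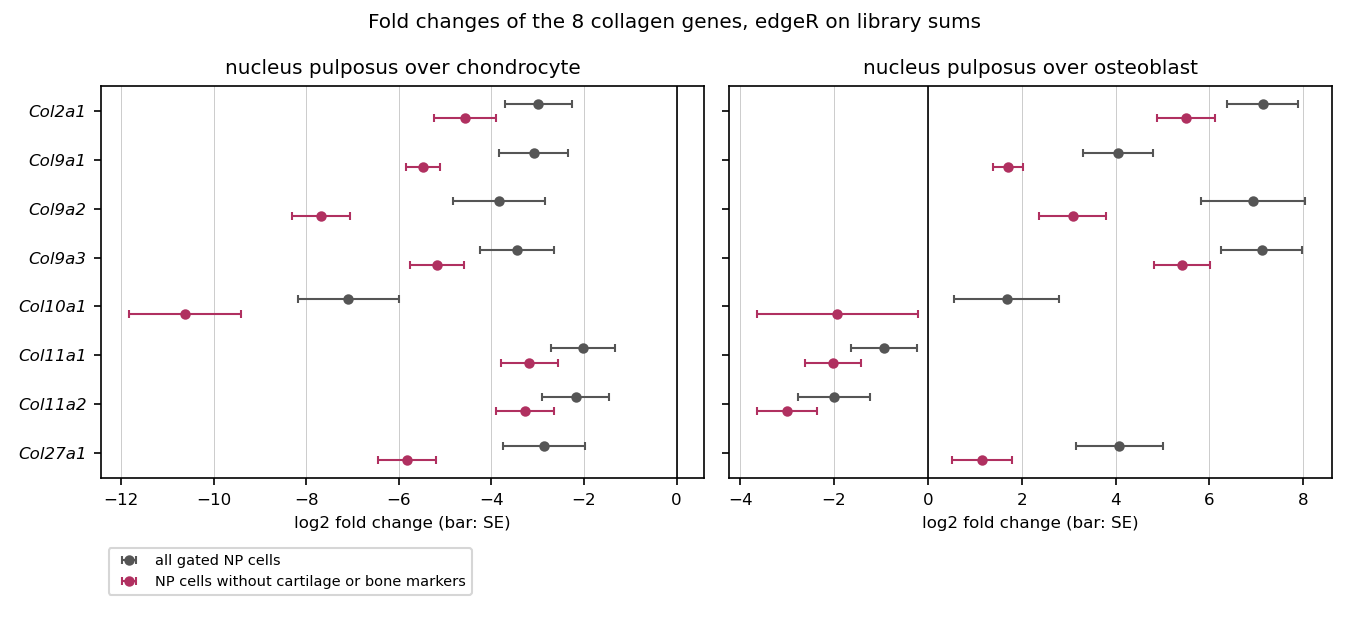
Log2 fold changes of nucleus pulposus cells over chondrocytes (left) and over osteoblasts (right) with their SE, for all gated cells (grey) and for cells without cartilage or bone markers (red). Points left of 0 are lower in nucleus pulposus cells, and leaving out the marked cells moves Col2a1 over chondrocytes to -4.57, while the red Col10a1 points rest on 2 UMIs.

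Against Prg4-positive cells, 1 gene was called lower in all nucleus pulposus cells, Col2a1 with a log2 fold change of -3.30 ± 0.74 (edgeR adjusted p = 0.0148), where 4.09% of genes were called lower. All 8 were called lower without the marked cells, against 8.05% of genes. Between chondrocytes and Prg4-positive cells none of the 8 genes was called, and 7 of all genes tested (0.0598%) were. At an unadjusted p under 0.05, 746 genes passed there in edgeR, and DESeq2's Wald test called 1 of the 8. For Col2a1 the log2 fold change of chondrocytes over Prg4-positive cells was -0.31, with an approximate 95% interval of -1.39 to 0.76 (edgeR adjusted p = 1.0). With only these 2 classes in the fit, 7 of the 8 genes were called, Col2a1 being the one that was not.

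The nucleus pulposus cells differed widely among themselves in Col2a1. Among those without cartilage or bone markers, 35 of 88, 26 of 120 and 3 of 8 cells had no Col2a1 UMI, the median cell had 220, 424 and 466 CPM, and the highest cells reached 10929, 14245 and 6478 CPM. The tenth of cells with the most UMIs of the gene held 62.8% and 57.1% of them in libraries 1 and 2. With all gated cells the medians were 474, 445 and 296 CPM and those shares 85.0% and 60.2%. The median chondrocyte had 20574, 24391 and 10864 CPM, and 20 of 800, 4 of 234 and 3 of 45 had none. At an equal depth of 2000 UMIs per cell, 50.6%, 57.6% and 42.9% of these nucleus pulposus cells held a Col2a1 UMI (61.3%, 59.2% and 50.0% of all gated ones), against 95%, 94.7% and 88.4% of chondrocytes. B lineage background cells gave 19.3%, 5.32% and 0.257% at the same depth, below the nucleus pulposus shares in each library. These background cells were chosen to hold no cartilage or bone gate gene, so this cannot show that the shares exceed free RNA.

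**Figure D3:**
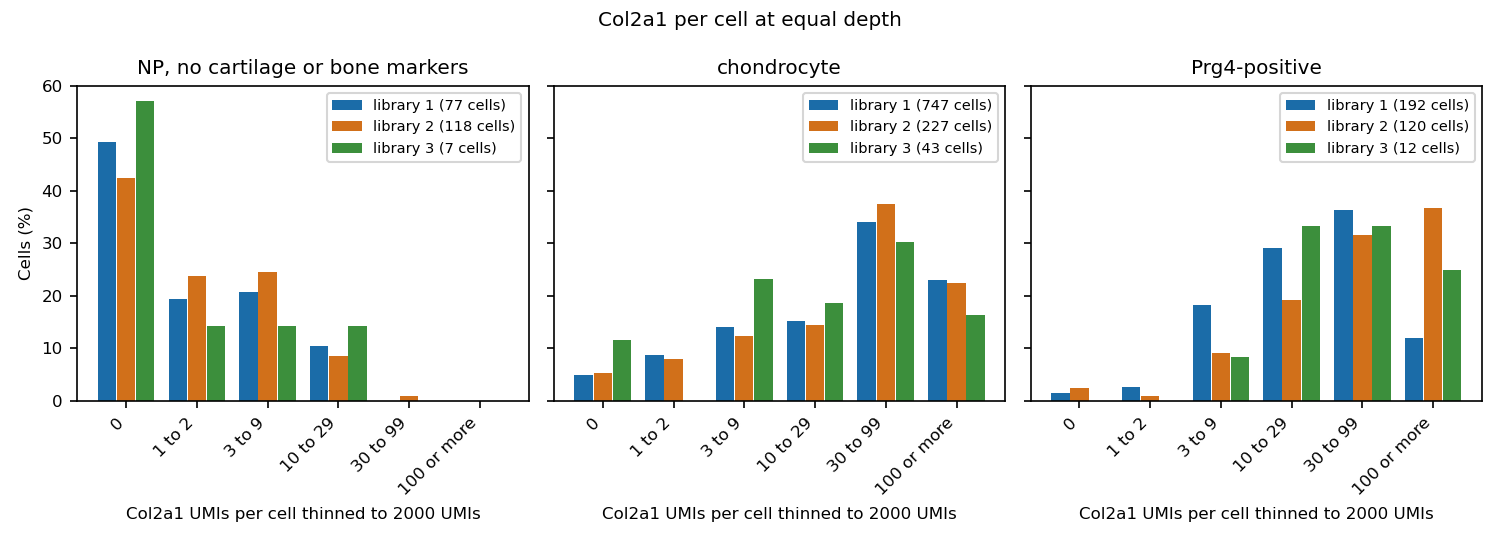
Share of cells (%) by their number of Col2a1 UMIs after thinning every cell to 2000 UMIs, by library, in nucleus pulposus cells without cartilage or bone markers, chondrocytes and Prg4-positive cells. In libraries 1 and 2, 49.4% and 42.4% of the nucleus pulposus cells have no UMI, while 23.0% and 22.5% of chondrocytes have 100 or more.

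Across single nucleus pulposus cells without cartilage or bone markers, Col2a1 went with the matrix genes Col11a1 and Acan. Spearman's rho with Col11a1 at equal depth was 0.66 and 0.70 in 2 random thinnings of the 77 cells of library 1, and 0.36 and 0.52 in those of the 118 cells of library 2, so it depended on the draw. With Acan it was 0.47 and 0.45 in 1 thinning of libraries 1 and 2. With Car3, a carbonic anhydrase abundant in these cells, it was -0.45 and -0.56. With Krt8, Krt19 and T, the notochord marker also called brachyury, it lay between -0.10 and 0.10 in the same draw. Krt8, Krt19 and T are gate genes of this class, so the gate itself limits how far they can vary with Col2a1. All of these values describe cells that share a library.

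The collagen XI genes reached beyond cartilage, as osteoblasts carried them above the B lineage background, though Col11a1 was lower there than in chondrocytes of every library. Col11a1 was at 1600, 449 and 711 CPM in all nucleus pulposus cells and at 458, 424 and 345 CPM without the marked cells. Chondrocytes had 5339, 3768 and 2958 CPM of Col11a1, Prg4-positive cells 2577, 1974 and 1933 CPM, osteoblasts 653, 1979 and 2117 CPM, and stromal cells 114, 62.0 and 151 CPM. Osteoblasts of libraries 2 and 3 thus lay in the range of the Prg4-positive cells, while the 36 osteoblasts of library 1 were lower. In library 1 osteoblasts Col1a1, the main collagen gene of bone, was lower as well, at 31895 CPM against 95535 and 102913 CPM in libraries 2 and 3, and the part of this in the Col11a1 value was not tested. Col11a2 was at 984, 211 and 263 CPM in all nucleus pulposus cells and at 303, 204 and 49.3 CPM without the marked cells. Chondrocytes had 3399, 2007 and 1767 CPM of Col11a2, Prg4-positive cells 1673, 1031 and 1203 CPM, and osteoblasts 807, 1851 and 2206 CPM, so that osteoblasts lay above Prg4-positive cells in libraries 2 and 3 and above chondrocytes in library 3. The lower nucleus pulposus value of library 3 rests on 2 UMIs of Col11a2. Stromal cells had 8.17, 1.68 and 0 CPM of Col11a2, no more than the B lineage background of 12.3, 4.32 and 5.62 CPM. Their Col11a1 was above its background of 12.0, 2.41 and 3.52 CPM, from cells without cartilage or bone gate genes. All B lineage cells, however, held Col11a1 at 32.1 to 210 CPM, a range that covers the stromal values.

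Chondrocytes over osteoblasts gave log2 fold changes of 1.08 ± 0.58 for Col11a1 and 0.18 ± 0.59 for Col11a2, neither called (edgeR adjusted p = 0.229 and 0.887), with approximate 95% intervals of -0.06 to 2.22 and -0.98 to 1.35. The other 6 collagen genes were all called higher in chondrocytes, by 6.95 to 10.76 on the log2 scale, where 12.0% of genes were called higher. Because the osteoblast gate left out cells with several chondrocyte gate genes, differences from osteoblasts in cartilage genes can be in part built in. Nucleus pulposus cells without the marked cells were lower than osteoblasts in both collagen XI genes, by -2.02 ± 0.60 for Col11a1 and -2.99 ± 0.64 for Col11a2 (edgeR adjusted p = 0.0237 and 0.00326), where 11.6% of genes were called lower. With all gated cells neither was called, at -0.94 ± 0.71 and -2.0 ± 0.76 (edgeR adjusted p = 0.402 and 0.0799), where 9.27% of genes were called lower. In the same comparison with osteoblasts, 5 of the 8 genes were called higher in all nucleus pulposus cells (13.2% of genes) and 4 without the marked cells (13.7% of genes): Col2a1, Col9a1, Col9a2 and Col9a3 in both, and Col27a1 with all cells only. The share of Col11a1 in the UMIs of the 2 collagen XI genes was 60.2% and 67.6% in nucleus pulposus cells without the marked cells, 61.1% and 65.3% in chondrocytes, and 44.7% and 51.7% in osteoblasts of libraries 1 and 2. With all gated nucleus pulposus cells it was 61.9% and 68.0%. In library 3 the nucleus pulposus value was 87.5% of 16 UMIs, against 62.6% in chondrocytes and 49.0% in osteoblasts. Relative to collagen II, nucleus pulposus cells without the marked cells had 30.8, 23.5 and 16.3 Col11a1 UMIs per 100 Col2a1 UMIs, against 13.7, 10.3 and 11.6 in chondrocytes, higher in each of the 3 libraries. All gated nucleus pulposus cells had 15.1, 21.1 and 53.5.

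The 3 collagen IX genes followed Col2a1 in cartilage cells and were low in nucleus pulposus cells. Col9a1 was at 740, 39.2 and 30.9 CPM in all nucleus pulposus cells, and at 69.7, 37.3 and 0 CPM without the marked cells, where 3 UMIs in the 8 cells of library 3 would be 73.9 CPM. Chondrocytes had 2997, 1755 and 1389 CPM of Col9a1 and Prg4-positive cells 940, 771 and 615 CPM, so nucleus pulposus cells lay below both classes without the marked cells, while library 1 with them overlapped the Prg4-positive range. Col9a2 was at 600, 13.8 and 0 CPM in all nucleus pulposus cells and lower still without the marked cells, with 20.9, 5.22 and 0 CPM from 18, 7 and 0 UMIs, against 2501, 1971 and 1438 CPM in chondrocytes. At equal depth 2.60% of these cells of library 1 had a Col9a2 UMI, as did 0 of 118 in library 2, which allows up to 3.08% (exact 95% interval). The shares of B lineage background cells were 1.66% and 0.405%, so Col9a2 was not told apart from that background as a share of thinned cells. Its summed level there was 7.07 and 1.17 CPM in libraries 1 and 2, below the 20.9 and 5.22 CPM given above. All B lineage cells held more, at 90.5 and 10.4 CPM. Col9a3 was at 1073, 99.5 and 108 CPM in all nucleus pulposus cells and at 149, 91.0 and 172 CPM without the marked cells. Chondrocytes had 3595, 3755 and 1881 CPM of it. At equal depth 23.4%, 11.9% and 28.6% of the unmarked nucleus pulposus cells had a UMI, against 2.69%, 0.760% and 0% of background cells. Those background cells were chosen to hold no cartilage or bone gate gene, so this cannot show an excess over free RNA. All B lineage cells held 146, 14.6 and 8.80 CPM of Col9a3, in library 1 close to the unmarked nucleus pulposus value. The log2 fold changes over chondrocytes without the marked cells were -5.47 ± 0.37 for Col9a1, -7.68 ± 0.63 for Col9a2 and -5.18 ± 0.58 for Col9a3 (edgeR adjusted p = 1.06e-06, 3.07e-06 and 3.31e-05). With all gated cells they were -3.08 ± 0.74, -3.84 ± 0.99 and -3.45 ± 0.81 (edgeR adjusted p = 0.0209, 0.0280 and 0.0180).

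The make-up of the collagen IX transcripts differed between nucleus pulposus cells without the marked cells and chondrocytes, and in library 1 this rested on leaving those cells out. Col9a2 gave 8.74% (exact 95% interval 5.26 to 13.5) and 3.91% (1.59 to 7.89) of the collagen IX UMIs of nucleus pulposus cells without the marked cells in libraries 1 and 2, against 27.5% and 26.3% in chondrocytes. Col9a3 gave 62.1% and 68.2% of them, against 39.5% and 50.2% in chondrocytes. With all gated nucleus pulposus cells Col9a2 gave 24.8% and 9.05% and Col9a3 44.5% and 65.2%, so that library 1 came close to chondrocytes and library 2 did not. In library 3 the nucleus pulposus value is 7 UMIs, all Col9a3. Prg4-positive cells tilted the other way from chondrocytes, with Col9a3 at 30.8%, 33.8% and 23.6%, against 39.5%, 50.2% and 40.0% in chondrocytes, lower in each library. Chondrocytes over Prg4-positive cells gave a log2 fold change of 2.18 ± 0.60 for Col9a3, which was not called with all gated cells (edgeR adjusted p = 0.281) and was called, at 2.15, in the fit without the marked nucleus pulposus cells (edgeR adjusted p = 0.0453, with 0.286% of genes called higher). In osteoblasts of libraries 2 and 3 Col9a1 made 82.7% and 90.8% of the collagen IX UMIs, against 23.5% and 29.5% in chondrocytes. It had 43 and 118 UMIs there, or 9.79 and 9.20 CPM, against 0.803 and 0.0879 CPM in B lineage background cells. In library 1 it was 8 of 16 UMIs (50%). The intervals cover counting error only, and a UMI share compares a chain between classes, not chains with each other.

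**Figure D4:**
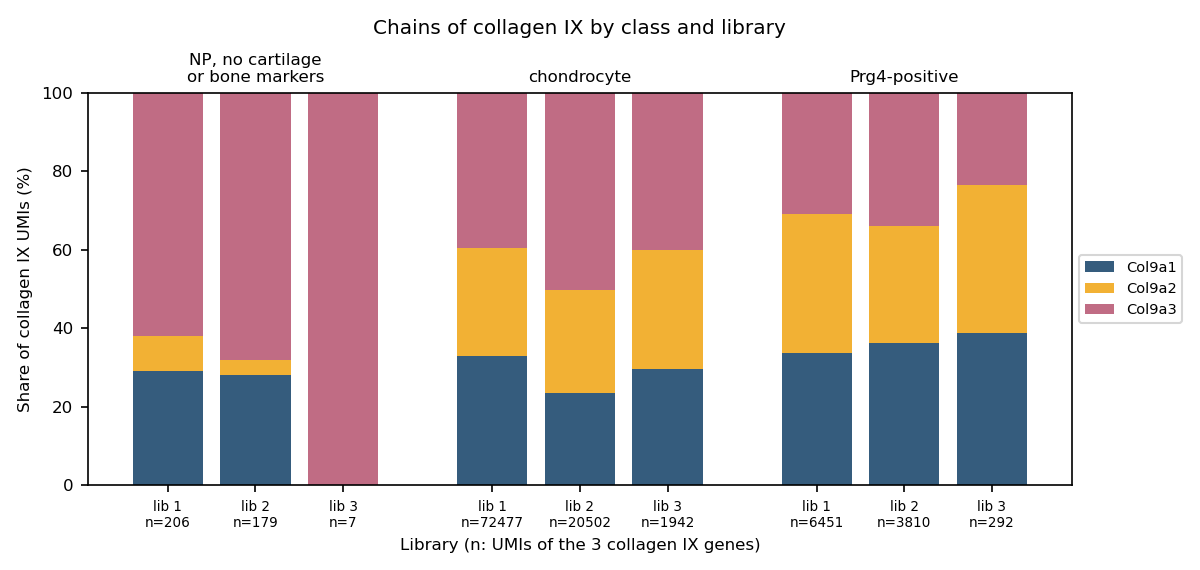
Share (%) of Col9a1, Col9a2 and Col9a3 in the UMIs of the 3 collagen IX genes, by class and library, with the number of UMIs under each bar (NP, nucleus pulposus). Col9a2 makes 8.74% and 3.91% in nucleus pulposus cells without cartilage or bone markers and 26.3% to 30.5% in chondrocytes, and the library 3 nucleus pulposus bar rests on 7 UMIs.

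Col10a1, the marker of hypertrophic chondrocytes, was a gene of few cells. Summed levels were 38.3, 0 and 0 CPM in all nucleus pulposus cells, 1104, 681 and 890 CPM in chondrocytes, 221, 6.71 and 10.9 CPM in Prg4-positive cells, 7.47, 0.911 and 1.48 CPM in osteoblasts, and 0 UMIs in stromal cells of each library. Of the 55 nucleus pulposus UMIs of library 1, 53 lay in cells with cartilage or bone markers. The remaining 2 UMIs in libraries 1 and 2, against 11033 in the chondrocytes of 3 libraries, made the level 1091 times higher in chondrocytes, with a counting interval of 302 to 9014. In the same fit Col10a1 was called lower in nucleus pulposus cells (edgeR adjusted p = 9.60e-05), and with all gated cells its log2 fold change was -7.09 ± 1.09 (edgeR adjusted p = 0.00257). Against stromal cells, a floor of 3 UMIs over the class makes it at least 9.37-fold higher in all nucleus pulposus cells, all of it from library 1. Among chondrocytes 664 of 800, 209 of 234 and 38 of 45 cells had no Col10a1 UMI, and the tenth with the most held 99.2%, 99.9% and 99.2% of the UMIs. The gene also appeared in single blood cells, as 1 B lineage cell of library 3 held 1374 of the 1381 Col10a1 UMIs of its class and 2 neutrophils of library 1 held 3359 of 3487.

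Cells with at least 2 Col10a1 UMIs numbered 107, 25 and 5, or 13.0%, 10.3% and 10.4% of the cells that passed the chondrocyte gene count, the osteoblast gate included. Of them 12, 4 and 1 also passed the osteoblast gate, which uses Ibsp. Since Col10a1 chose them, their values are a description. They carried Ihh, the hedgehog ligand of prehypertrophic cartilage, at 365, 570 and 783 CPM, against 26.9, 70.8 and 0 CPM in the other chondrocytes of libraries 1, 2 and 3. Mef2c, a transcription factor of hypertrophy, was at 550, 720 and 653 CPM against 151, 139 and 103 CPM, and the parathyroid hormone receptor Pth1r at 1124, 1351 and 696 CPM against 411, 449 and 309 CPM. The bone matrix genes Spp1 and Ibsp were higher too, Spp1 at 13312, 26755 and 35511 CPM against 2075, 2483 and 1873 CPM and Ibsp at 6401, 6122 and 8225 CPM against 1101, 2760 and 823 CPM. The channel gene Panx3 and the collagenase gene Mmp13 lay higher in each library as well, with Mmp13 at 228, 352 and 65.3 CPM against 20.6, 3.87 and 18.7 CPM. In library 3 the Ihh value is 36 UMIs and the Mmp13 value 3 UMIs, each in 1 of the 5 cells. Runx3, in contrast, was lower in Col10a1-positive cells at 30.2, 18.7 and 21.8 CPM, against 101, 82.0 and 56.1 CPM. Ptch1 was lower as well, at 78.6, 53.3 and 87.0 CPM against 189, 153 and 110 CPM. Matn3, a cartilage matrix adaptor, was at 592, 453 and 109 CPM against 1676, 884 and 358 CPM. Sp7 and Vegfa went both ways, with Sp7 at 36.6 against 43.3 CPM in library 1 and Vegfa at 109 against 122 CPM in library 3. Runx2, Alpl and Foxa2 lay higher in each library. The share of all genes that differ in this way was not counted. Collagen II transcripts were still abundant in these cells: Col2a1 was at 31055, 22626 and 24892 CPM, against 41108, 38327 and 24150 CPM in the others, lower in libraries 1 and 2 only. Col9a1 was lower in each library, at 2043, 1386 and 827 CPM against 3301, 1925 and 1377 CPM. Their median depths were 8068, 12864 and 6259 UMIs, against 8527.5, 10369.5 and 10029 UMIs.

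**Figure D5:**
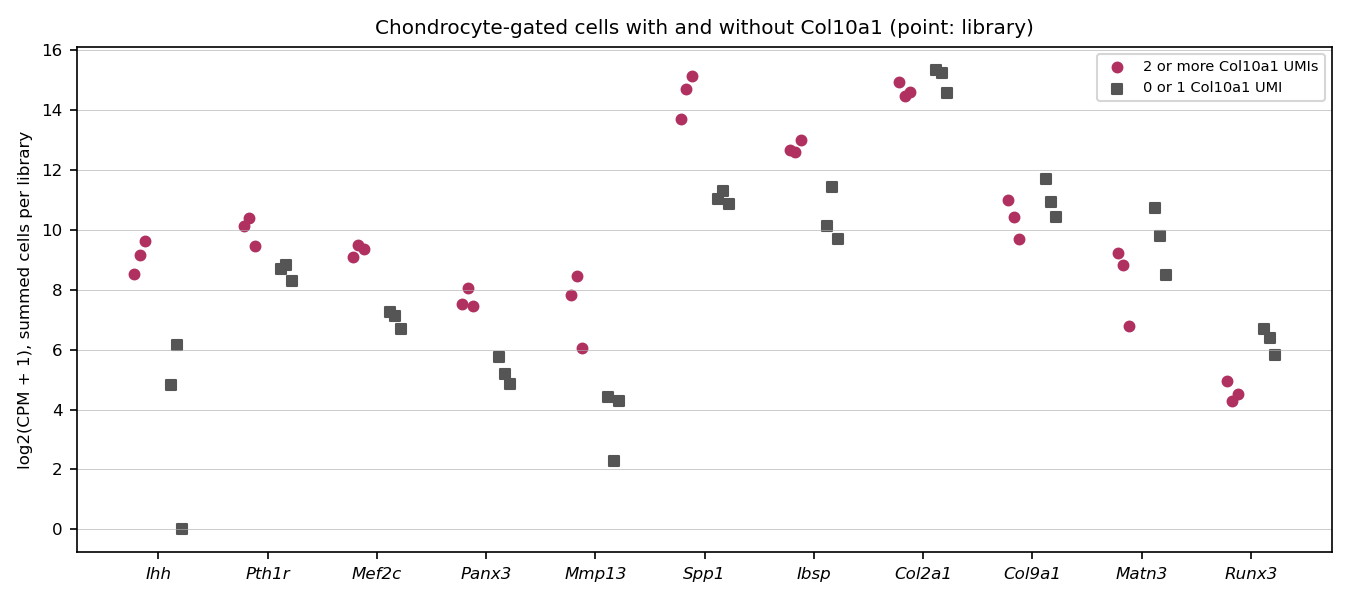
Levels as log2(CPM + 1) of hypertrophy and cartilage genes in chondrocyte-gated cells with 2 or more Col10a1 UMIs (circles) and with fewer (squares), 1 point per library. Ihh, Pth1r, Mef2c, Panx3, Mmp13, Spp1 and Ibsp lie higher in the circles of each library, and Col9a1, Matn3 and Runx3 lower. The library 3 circle rests on 5 cells, and other hypertrophy genes that went both ways are not drawn.

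Col27a1 was a chondrocyte gene with a smaller range. It was at 352, 15.2 and 0 CPM in all nucleus pulposus cells and at 23.2, 11.9 and 0 CPM without the marked cells, against 19.1, 10.0 and 10.9 CPM in the B lineage background and 2.31, 0.597 and 0.170 CPM in neutrophils without a gate gene. Chondrocytes had 1268, 836 and 514 CPM of Col27a1, Prg4-positive cells 433, 190 and 158 CPM, and osteoblasts 12.5, 3.87 and 4.83 CPM. Stromal cells, at 6.13, 28.5 and 40.0 CPM, stood above osteoblasts and the B lineage background in libraries 2 and 3, and below Prg4-positive cells. The log2 fold change over chondrocytes was -2.87 ± 0.88 with all nucleus pulposus cells, not called (edgeR adjusted p = 0.0595), and -5.82 ± 0.63 without the marked cells (edgeR adjusted p = 2.66e-05).

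Against stromal cells, 6 of the 8 genes were called higher in all nucleus pulposus cells, where 10.4% of genes were, and 5 without the marked cells, where 11.0% were. Col2a1 led with 8.49 ± 0.81 on the log2 scale, and Col11a1 gave 3.76 ± 0.70 (edgeR adjusted p = 2.18e-05 and 0.00239). Col27a1 was not called in either, and its direction turned, with a log2 fold change of 2.61 with all cells and of -0.29 without the marked cells. Col9a1 had 110 UMIs in nucleus pulposus cells of libraries 1 and 2 without the marked cells, against 3 in all stromal cells, a ratio of CPM of 23.9 with a counting interval of 7.98 to 118. Without the stromal cells that carried endothelial markers 6 of the 8 collagen genes were called, where 9.09% of genes were called higher.

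Other genes of collagen biology moved both ways between nucleus pulposus cells and chondrocytes. These lists were read against 6.0% of all genes called higher and 3.67% called lower. Of the 3 Sox factors, Sox5 was called lower in nucleus pulposus cells, at -1.45 ± 0.37 (edgeR adjusted p = 0.0261), while Sox9 was at 627, 393 and 61.8 CPM in nucleus pulposus cells (497, 380 and 98.6 CPM without the marked cells) against 943, 751 and 468 CPM in chondrocytes and was not called. Of 21 genes for procollagen folding, modification and export, 1 was called higher and 6 lower, with a median log2 fold change of -0.70 against -0.03 for all genes. P4ha3, a prolyl 4-hydroxylase subunit, was the one that was higher, by 3.77 ± 0.48 (edgeR adjusted p = 0.000349), with 53.0, 98.7 and 0 CPM in nucleus pulposus cells (68.6, 99.96 and 0 CPM without the marked cells) against 5.39, 5.84 and 0 CPM in chondrocytes. P3h3, a prolyl 3-hydroxylase family member, and Colgalt2, a collagen galactosyltransferase, were lower, by -2.50 ± 0.45 and -2.03 ± 0.48. Among 10 tested genes of processing and cross-linking, 1 was called lower, the lysyl oxidase Lox at -3.29 ± 0.82 (edgeR adjusted p = 0.0241). Of 13 partners in the fibril 3 were called lower, among them Chadl and Matn4 at -3.16 ± 0.74 and -3.19 ± 0.77, and the list's median was -2.64. Of the 7 collagen receptors 2 were called higher and none lower: Itga1, the integrin alpha 1 chain, at 3.01 ± 0.49 and the discoidin receptor Ddr2 at 2.28 ± 0.31. Ddr2 was at 170, 310 and 124 CPM in nucleus pulposus cells (223, 306 and 148 CPM without the marked cells), against 60.1, 44.5 and 41.2 CPM in chondrocytes. For collagen degradation, 1 of 10 tested was called lower, the convertase gene Furin at -0.96 ± 0.27, and for hypertrophy 1 of 11 was higher (Spp1, 1.73 ± 0.46) and 3 lower, among them Ihh at -5.30 ± 1.06 and Runx3 at -2.99 ± 0.74. Without the marked cells, where 8.74% of all genes were called higher and 8.63% lower, these counts were 1 of 3 Sox factors lower, 2 of 21 folding genes higher and 11 lower, 3 of 10 processing genes lower, 10 of 12 fibril partners lower with Comp left out as it had chosen cells, 2 of 7 receptors higher and 1 lower, 4 of 10 degradation genes lower, and 1 of 11 hypertrophy genes higher and 6 lower.

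Between chondrocytes and osteoblasts most fibril partners and all Sox factors were higher in chondrocytes, while 12.0% of all genes were called higher there and 9.37% lower. The osteoblast gate left out cells with several chondrocyte gate genes, so such differences can be in part built in. The 3 Sox factors were each called, Sox9 by 6.71 ± 0.50 (edgeR adjusted p = 1.56e-06). Of 13 fibril partners 10 were called higher and none lower, led by Prelp at 9.29 ± 0.53 and Chad at 8.28 ± 1.05. Folding genes went both ways, 6 of 21 higher, among them Colgalt2 at 7.60 ± 0.63, and 2 lower. Processing genes split as well, with the lysyl oxidase-like gene Loxl2 and the enhancer gene Pcolce2 among 3 higher, and the procollagen proteinase genes Adamts2 and Bmp1 among 4 lower, at -3.52 ± 0.32 and -3.33 ± 0.34. Degradation genes were mostly lower in chondrocytes, 7 of 10 against 3 higher, with Mmp13 at -5.25 ± 1.02 and Mmp9 at -5.45 ± 1.01. Hypertrophy genes were called higher for 3 of 11 and lower for 4, and 1 of 7 receptors was called each way.

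Across the 14 sums of library and class, Col2a1 and the collagen IX genes varied together. Pearson's r of log2(CPM + 1) was 0.98 for Col2a1 with Col9a3, 0.97 with Col9a1 and 0.95 with Col9a2, while Col11a1 and Col11a2 gave 0.94 with each other. Col11a2 with Col27a1 gave 0.39. Among 5867 other genes, those most like Col2a1 were Ucma, Scrg1 and Fmod (0.99, 0.99 and 0.98), and those most like Col9a1 were Papss2, Adgrg6 and Calml3 (0.97, 0.96 and 0.96). Col9a2 was nearest to Sfrp5, Sobp and Serpina1b, Col9a3 to Ucma, Sfrp5 and Scrg1, Col10a1 to Serpina1a, Ihh and Chrdl2, Col11a1 to Gramd2, Ikbip and P4ha1, Col11a2 to Kcnma1, Gramd2 and Sema3d, and Col27a1 to Kctd4, Fam180a and Serpina1a, with r between 0.92 and 0.97. The sums share libraries and classes, so these are descriptions. Within chondrocytes at equal depth, Col2a1 rose and fell with Col9a1 (Spearman's rho 0.77 over 747 cells and 0.71 over 227 cells of libraries 1 and 2) but not with Col10a1 (-0.04 and -0.18). In osteoblasts Col11a1 and Col11a2 gave 0.61 over 217 cells of library 2 and 0.58 over 660 cells of library 3.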

How the data were processed

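The deposited matrices hold counts of UMIs per gene and barcode, whole numbers without normalization, per the file headers and the values. Libraries were 3' end 10x libraries of kit version v3, per the labels' protocols. Cell Ranger 3.0.2, Seurat 4 and mm10 are named in the submitters' processing notes, while the matrix headers name version 3.0.1 for library 1 and 6.0.0 for libraries 2 and 3. The 30406 gene IDs shared by the libraries hold 99.9%, 99.6% and 99.6% of their UMIs. The collagen genes, gates and gene lists were chosen with earlier results of these data known.

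Cells with at least 500 genes and at most 15% mitochondrial UMIs were kept. A cell with a UMI of at least 3 of 6 blood genes (Ptprc, Coro1a, Tyrobp, Laptm5, Cd53, Rac2) entered no class. Nucleus pulposus cells had a UMI of at least 3 of Krt8, Krt18, Krt19 and T and at least 1% mitochondrial UMIs, and cells below 1% were kept apart. Chondrocytes had 3 of Acan, Hapln1, Matn3, Cnmd, Snorc and Epyc, Prg4-positive cells 2 UMIs of Prg4 and 1 of Cytl1, osteoblasts 4 of Bglap, Bglap2, Ibsp, Sp7, Ifitm5 and Alpl, and stromal cells 3 of Cxcl12, Lepr, Adipoq, Ebf3, Kitl and Lpl. The first 3 of these classes had at most 1 nucleus pulposus marker, and chondrocytes and osteoblasts under 2 Prg4 UMIs. Osteoblasts also had a UMI of under 3 of the 6 chondrocyte gate genes, and chondrocytes failed the osteoblast gate. Stromal cells passed none of the other gates. A nucleus pulposus cell with at least 3 UMIs over Comp, Matn3, Cilp, Cilp2 and Prg4, or 4 osteoblast gate genes, was set aside in an alternative chosen after the data were seen. No doublets were removed in the reported gates, and removing those that Scrublet (scanpy 1.11.5) called, 85, 562 and 445 barcodes, was an alternative.

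UMIs were summed per library and class with at least 10 cells and tested with edgeR 4.0.16 in R 4.3.3 (quasi-likelihood test, TMM scaling, filterByExpr), all 5 classes in 1 fit with the library as block, since all sums of 1 library share a pool of animals. Same-library deviations from class means correlated at 0.18 in the median of 26 pairs (0.06 to 0.45), against -0.09 between libraries. The deviations of a class cancel over its few libraries, so the between-library value in part mirrors the same-library one. It is not separate evidence for the block. A gene was called at a Benjamini-Hochberg adjusted p under 0.05 over every gene tested, and the SE is the log2 fold change over the square root of the F statistic, with its 95% interval taken as normal. The labels give separate pools of litter-matched animals. With the library as block, p-values measure how class differences vary between these libraries, with the spread estimated over all 5 classes together. The nucleus pulposus class enters the reported fits with libraries 1 and 2 only, so its spread is largely taken from the other classes. CPM is per 1000000 summed UMIs. Shares at equal depth use cells thinned to 2000 UMIs, and shallower cells were left out. The fit was tested on simulated data. Named list genes are up to 2 called each way with the largest change and at least 50 CPM in the higher class, and the genes most alike are the 3 with the highest r. A 3' UMI count does not scale with transcript length, so genes are compared across classes and not with each other. Whether overlapping genes on the opposite strand share reads depends on the strand setting, which is not given in the sources used here. Sums and shares were made in Python 3.11.15 (scipy 1.17.1, pandas 2.3.3, numpy 2.4.6) and drawn with matplotlib 3.10.9, and DESeq2 1.42.0 was an alternative.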

Additional observations from a re-analysis of the deposited data

Results flagged for a closer look

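Cells that passed both the chondrocyte and the osteoblast gates, 23, 9 and 3 in libraries 1, 2 and 3, belong to none of the 5 classes compared and carried the highest summed Col10a1 levels, 11166, 4473 and 18252 CPM, against 1104, 681 and 890 CPM in chondrocytes and 7.47, 0.911 and 1.48 CPM in osteoblasts. A few cells carried these levels, as the median cell held 6, 1 and 1 Col10a1 UMIs, and in library 3 1 cell held 1116 of the 1117 UMIs. They were noted because a signal stood above the other classes in cells outside the comparisons. Their median depth was 21409, 23337 and 22272 UMIs, against 7848.5, 9987 and 8664 UMIs in chondrocytes, and whether they are 2 cells in 1 droplet was not tested.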

How the results depend on the processing

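Of the 8 collagen genes, 5 were called between nucleus pulposus cells and chondrocytes. All 8 were called with no blood panel exclusion, no lower mitochondrial limit, no marked cells, DESeq2's Wald test, no filter on low counts or a minimum of 5 cells per sum, and 0 without the library as replicate block or with 2 classes only in the fit (0 to 8 leaving out 1 library). Against Prg4-positive cells 1 was called, and 5, 7, 8, 2, 4 and 3 under the first 6 of those settings in the same order and 0 without the block (0 to 8). Chondrocytes against Prg4-positive cells gave 0, and 1, 1, 2, 1 and 2 under the first 5 and 7 with 2 classes only (0 to 3). The counts against osteoblasts and stromal cells moved less (5 to 6, 6 to 7, and 6 throughout for chondrocytes against osteoblasts, leaving out 1 library). The pairing changed no other count of collagen genes by over 1.5 times.

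Directions turned, with neither the reported nor the turned value called, for Col10a1 against osteoblasts (-1.93 without the marked cells), Col27a1 against stromal cells (-0.29 likewise), Col2a1 of chondrocytes against Prg4-positive cells (0.037 with 1 more marker per gate), and, leaving out 1 library, for Col9a3 against Prg4-positive cells (-3.17 to 0.044), Col10a1 (-4.79 to 2.78) and Col11a1 (-2.50 to 0.28) against osteoblasts, Col27a1 against stromal cells (-0.83 to 4.12) and Col11a2 of chondrocytes against osteoblasts (-0.43 to 0.73). Of the other ends of these ranges, -3.17, -2.50 and 4.12 were called. The cause was not tested.

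Genes called among all tested were 1132 for nucleus pulposus cells against chondrocytes, and 2024 with no lower mitochondrial limit, 1942 without the marked cells, 734 without the block and 361 with 2 classes only (115 to 1586 leaving out 1 library). Against Prg4-positive cells they were 1142, and 1889, 1792, 756 and 559 (114 to 1427), against osteoblasts 2628 and 1498 with 2 classes only (660 to 2806), against stromal cells 2280 and 610 (644 to 2320), and for chondrocytes against osteoblasts 2501 (1205 to 2511). Chondrocytes against Prg4-positive cells gave 7, and 922 with 2 classes only, 116 with no filter, 55 with DESeq2, 41 without the marked cells, 26 with no lower mitochondrial limit, 3 at 5 cells, 2 at 20 cells or 1 more marker, and 1 without the block (0 to 70). Scaling by DESeq2's size factors changed no call of a collagen gene, and moved the median of all genes by -0.11 against stromal cells. Among all genes it changed the counts slightly, to 1145 for nucleus pulposus cells against chondrocytes. Of 40 mean shares of cells at 2000 UMIs, 16 moved by more than the SD between libraries at the shallower depth tried, 20 at the deeper one and 32 with no thinning, so the shares hold for the depth named. They rest on 7 to 747 cells a library for the cartilage and nucleus pulposus classes, and the 8 cells of library 3 limit every nucleus pulposus value there.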

Other observations

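Nucleus pulposus cells with under 1% mitochondrial UMIs, 430, 33 and 17 in libraries 1, 2 and 3, held little of any collagen transcript. Col2a1 was at 193, 43.9 and 32.5 CPM in them, against 1489, 1809 and 2119 CPM in nucleus pulposus cells with at least 1% and without cartilage or bone markers, and Col11a1 at 67.3, 14.6 and 32.5 CPM against 458, 424 and 345 CPM. Their median depth was 2544.5, 3450 and 1250 UMIs, against 7652, 10483 and 4442 UMIs.

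Osteoblasts in library 3 held Col1a1 at 102913 CPM, and Col1a1 was also higher in the chondrocytes of that library (19224 CPM) than in those of libraries 1 and 2 (4615 and 7976 CPM).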
